A study of Rattus norvegicus with 6 samples.

Results

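The expression of 43 genes of fatty acid oxidation and ketogenesis was examined in rat liver. The members were listed by name and matched to the arrays through each probe's accession, which found 66 probes for all 43 of them among 15284 named genes on the arrays. Liver RNA came from male Sprague-Dawley (Crl:CD(SD)) rats, bought at 5 weeks of age and kept on a basal diet. In the control group 3 rats received corn oil, the vehicle. In the treated group 3 rats received BBMP at 1000 mg/kg/day. BBMP is 2,2-bis(bromomethyl)-1,3-propanediol, a flame retardant that carries bromine. The labels give the time as 28 days in one place and as 9 weeks in another, and they do not state the route. RNA from whole liver of each rat was hybridised to its own 1-colour array, so every value is a mixture of the cell types of the organ. In such bulk samples fewer cells of a type and less RNA per cell cannot be told apart.

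Fatty acids enter the hepatocyte, are activated to acyl-CoA esters and are shortened by beta-oxidation in either of a pair of organelles. Mitochondria take up long-chain acyl groups as carnitine esters, pass the electrons of oxidation to the respiratory chain through the electron transfer flavoprotein, and turn surplus acetyl-CoA into ketone bodies. Peroxisomes shorten very long and branched chains and export the products. In rodent liver many genes of both pathways are targets of the nuclear receptor PPAR-alpha, and the peroxisomal genes are known for their response to peroxisome proliferators.

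The members were placed by the known location of their proteins: 12 peroxisomal, 19 mitochondrial, 3 found in the peroxisome and another place, and 9 for uptake, activation, storage and related steps. A binding element of PPAR-alpha with its partner RXR consists of AGGTCA, then any single base (N), then AGGTCA again. It was searched on both strands in RefSeq promoters of the GRCr8 assembly, from 250 bases before to 50 bases after the start, which were at hand for 39 members with 40 promoters. The promoters of Ehhadh and Pex11a are shown because these members had the largest differences among the peroxisomal genes, and those of Acot8 and Fabp1 because they hold the element with 1 mismatch. That of Acadvl, a mitochondrial member, also holds it with 1 mismatch and is not shown. Capitals mark the closest match to the element on either strand.
Ehhadh, chr11:92746159-92746458, plus strand: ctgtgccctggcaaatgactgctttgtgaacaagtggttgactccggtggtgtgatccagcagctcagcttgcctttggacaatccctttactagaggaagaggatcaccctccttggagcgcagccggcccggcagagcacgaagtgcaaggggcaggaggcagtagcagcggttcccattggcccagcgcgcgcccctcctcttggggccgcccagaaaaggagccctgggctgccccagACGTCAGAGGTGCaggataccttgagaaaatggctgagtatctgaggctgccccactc
Pex11a, chr1:143096442-143096741, minus strand: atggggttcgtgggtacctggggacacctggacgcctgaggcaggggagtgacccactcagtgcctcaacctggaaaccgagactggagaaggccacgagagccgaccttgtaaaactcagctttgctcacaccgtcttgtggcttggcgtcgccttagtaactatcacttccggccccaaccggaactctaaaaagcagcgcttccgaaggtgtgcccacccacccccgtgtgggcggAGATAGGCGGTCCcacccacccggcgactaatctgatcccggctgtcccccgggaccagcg
Acot8, chr3:173962139-173962438, minus strand: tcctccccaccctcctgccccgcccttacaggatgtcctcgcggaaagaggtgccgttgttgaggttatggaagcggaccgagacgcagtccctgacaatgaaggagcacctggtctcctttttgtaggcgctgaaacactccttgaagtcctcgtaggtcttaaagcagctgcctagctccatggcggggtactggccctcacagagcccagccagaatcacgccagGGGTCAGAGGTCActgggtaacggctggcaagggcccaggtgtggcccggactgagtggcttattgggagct
Fabp1, chr4:104749090-104749389, plus strand: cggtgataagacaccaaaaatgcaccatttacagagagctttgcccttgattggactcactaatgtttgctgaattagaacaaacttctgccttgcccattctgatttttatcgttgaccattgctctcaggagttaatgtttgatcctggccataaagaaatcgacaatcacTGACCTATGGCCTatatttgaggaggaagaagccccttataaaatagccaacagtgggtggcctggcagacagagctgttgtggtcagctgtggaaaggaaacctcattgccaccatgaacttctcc
The closest match had 3 mismatches in Ehhadh and 5 in Pex11a, so neither promoter holds the element in this window. The exact element was in 0 of the 40 member promoters, in 0.0538% of all 33469 promoters and in 0.0229% of protein-coding promoters. With at most 1 mismatch it was in 3 (7.5%), those of Acadvl, Acot8 and Fabp1, against 0.439% of all and 0.398% of protein-coding promoters. These included 1 of 12 peroxisomal and 1 of 16 mitochondrial promoters. With at most 2 mismatches it was in 1 of 12 peroxisomal and 4 of 16 mitochondrial promoters. The single copy AGGTCA, which every exact element contains, was in 10 member promoters (25%) against 16.2% of all and 14.2% of protein-coding promoters. The GC box GGGCGG was in 27 (67.5%) against 33.1% of all and 41.8% of protein-coding promoters. It was in 10 of 12 peroxisomal and 12 of 16 mitochondrial promoters. The windows of Hadha and Hadhb, the subunits of the mitochondrial trifunctional protein, face away from each other and share 200 bases, so they are not independent. A match is a description of the letters and not evidence of binding.

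Between 60.1% and 64.4% of 61573 probes were well above background per array. Precision is limited by the small number of arrays. Corn oil 2 lay farthest out on the main component of variation, at -50.84 against -9.60 and -14.82 in the other corn oil livers and 19.09 to 28.70 in treated livers. The corn oil arrays shared 1 slide and 1 scan, and the treated arrays shared a different slide and scan. For every value below, effects of slide, scan and BBMP cannot be told apart. All 10 hepatocyte markers looked for, albumin among them, were well above background on 6 arrays. Markers of Kupffer cells (8 of 8) and endothelium (5 of 5 on the array) were also measured on every array, with summed linear levels that overlapped between the groups. Of 7 fat cell markers 6 were on the array and 3 were well above background on 6 arrays, with summed levels of 13.5 to 18.6 in corn oil livers and 13.4 to 16.2 in treated livers. Adiponectin and leptin, which define fat cells, were well above background on 0 arrays. The summed level of 8 stellate cell markers was 35.3 to 40.4 times the array's 75th percentile in corn oil livers and 27.6 to 32.3 in treated livers, without overlap, and its part in the results was not tested.

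Differences between the groups were small, and none passed the test. After BBMP 30 of 42 tested members were higher and 12 lower, with a median log2 difference of 0.10, where 47.5% of all 28112 features tested were higher and their median was -0.01. Levels are the log2 of the processed signal relative to the array's 75th percentile, and a difference is the mean of the 3 treated livers minus that of the 3 corn oil livers. No member passed: 0 of 42 had a limma adjusted p below 0.05, against 2 of 28112 features (0.00711%), and the adjusted p of members ran from 0.350 to 0.999. At an unadjusted limma p under 0.05 there were 3 members higher (4.7% of all features) and 1 lower (6.1% of all features). The count of 4, against 3035 of 28112 features, was 8 without corn oil 1 (3216 features) and 10 with normexp background correction (3252 features). The groups did not overlap for 10 members that were higher after BBMP (8.25% of all features) and for 1 that was lower (9.6%). The tested members were well above background on all 6 arrays, so none was measured in a single group only. The genes were listed with earlier results of these arrays known, and these counts are a description.

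**Figure D1:**
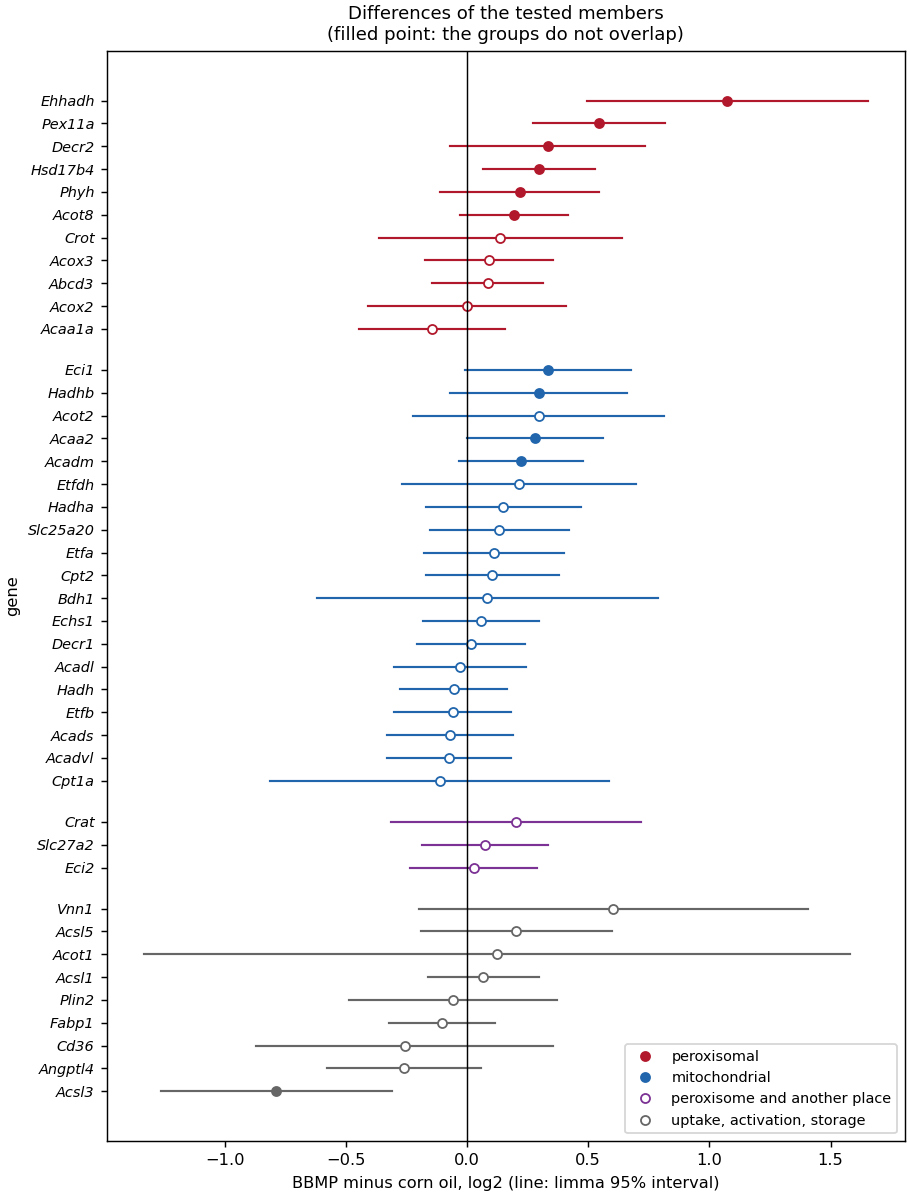
Difference in log2 signal between BBMP and corn oil livers (horizontal axis) for each of the 42 tested members, grouped by the known place of their proteins; lines are limma 95% intervals from 3 rats a group and filled points are genes whose groups do not overlap. Filled points lie mostly among the peroxisomal genes, with Ehhadh farthest to the right at 1.07 and Acsl3 farthest to the left at -0.79.

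The peroxisomal members had the highest median of the 4 groups of members. Of 11 tested, 10 were higher (47.5% of all features) and 1 lower after BBMP, with a median difference of 0.19 on the log2 scale (0.31 with normexp), and 6 had groups that did not overlap, all higher after BBMP (8.25% of all features). Their differences ran from -0.15 for Acaa1a to 1.07 for Ehhadh. Of the 10 higher, Acox2 was at 0.0005 and went below 0 with normexp background correction (-0.16) and with quantile normalisation (-0.00065).

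Ehhadh encodes the bifunctional enzyme that carries out the hydratase and dehydrogenase steps of peroxisomal beta-oxidation. Its log2 levels were 4.93, 4.05 and 4.43 in corn oil livers and 5.41, 5.41 and 5.80 in treated livers. Every treated liver lay above every corn oil liver, and corn oil 2 was the lowest. The difference of 1.07 ± 0.24 (SE, 3 rats a group), or 2.11-fold, was the largest of the members and did not pass over all features (limma adjusted p = 0.375). Without corn oil 2 it was 0.87. Ehhadh was measured by a single probe.

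Pex11a encodes a membrane protein that drives the division and proliferation of peroxisomes. Its levels were 5.61, 5.57 and 5.50 in corn oil livers and 5.99, 6.28 and 6.04 in treated livers. The corn oil livers lay close together and the treated livers were all higher, by 0.55 ± 0.11 (SE; limma adjusted p = 0.350). The other probes of Pex11a gave 0.59 and 0.36, with treated livers above corn oil livers in each.

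Hsd17b4, the other bifunctional enzyme of the peroxisome, which handles branched chains and bile acid precursors, gave 7.21, 7.06 and 7.20 in corn oil livers. In treated livers it gave 7.38, 7.48 and 7.49. The groups were narrow and did not overlap, with a difference of 0.30 ± 0.10 (SE; limma adjusted p = 0.408). Its dimmer probe gave 0.13, and there the groups overlapped.

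Decr2, the peroxisomal dienoyl-CoA reductase needed for unsaturated chains, was at 2.96, 2.36 and 2.81 in corn oil livers and at 3.02, 3.01 and 3.10 in treated livers. The difference of 0.33 ± 0.17 (SE; limma adjusted p = 0.519) was 0.16 without corn oil 2, the lowest liver. Acot8, a thioesterase that releases shortened acyl chains, was at 4.13, 4.01 and 4.04 against 4.19, 4.25 and 4.31 (difference 0.19). Phyh, which starts the alpha-oxidation of phytanic acid, was at 5.50, 5.18 and 5.45 against 5.50, 5.77 and 5.50 (difference 0.22). For both genes the treated livers were all above the corn oil livers at the brightest probe, for Phyh by less than the rounding of these values. The dimmer probe of Phyh gave 0.20 with overlapping groups, and that of Acot8 gave 0.36 without overlap.

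The remaining peroxisomal genes differed little. Abcd3, a transporter of acyl-CoA into the organelle, differed by 0.09, the branched-chain oxidase Acox3 by 0.09, and Crot, which makes medium-chain carnitine esters for export, by 0.14. Acox2, the oxidase of bile acid intermediates, differed by 0.0005 ± 0.17 (SE), with a 95% interval from -0.41 to 0.41, so differences of that size in either direction are within the interval. For Abcd2, another transporter of the same family, each probe missed the background limit on at least 1 array of both groups. The brighter one was well above background in 1 corn oil liver and 2 treated livers and ran from -7.68 to -4.43, and no difference is given.

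Acaa1a, the peroxisomal thiolase that completes each cycle, was measured by 3 probes that disagreed. The brightest gave 8.65, 8.49 and 8.37 in corn oil livers and 8.20, 8.40 and 8.48 in treated livers, a difference of -0.15. The other probes gave 0.37 and 0.23, with BBMP 3 highest on each. The direction for Acaa1a is therefore uncertain. Acaa1b, a near-identical rat copy, differed by 0.35 and was also highest in BBMP 3. Whether these probes bind its transcripts was not tested.

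**Figure D2:**
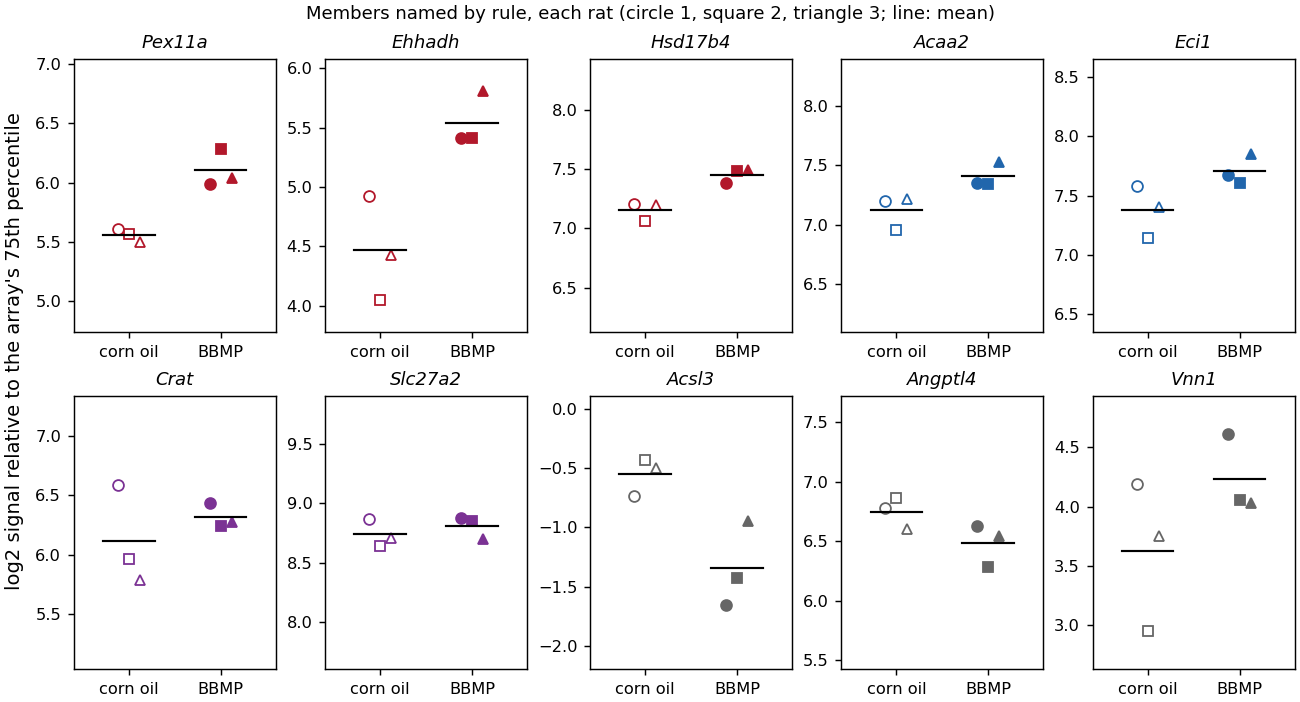
Log2 signal relative to the array's 75th percentile (vertical axis, all panels on the same span) in each of the 6 livers for the 10 members named by rule; open symbols are corn oil, filled symbols BBMP, symbol shape the animal number, and lines the group means. For Pex11a, Ehhadh, Hsd17b4, Acaa2 and Eci1 all filled points lie above the open ones, and for Acsl3 all lie below.

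The mitochondrial members were closer to 0. Of 19 tested, 13 were higher and 6 lower, with a median difference of 0.11 and a range from -0.11 for Cpt1a to 0.33 for Eci1. None had an unadjusted limma p under 0.05. Groups did not overlap for 4, all higher after BBMP (8.25% of all features): Eci1, Hadhb, Acaa2 and Acadm.

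Eci1, the enoyl-CoA isomerase for unsaturated chains, was at 7.58, 7.15 and 7.41 in corn oil livers and 7.67, 7.61 and 7.85 in treated livers. The difference was 0.33 ± 0.14 (SE; limma adjusted p = 0.469). Acaa2, the mitochondrial thiolase, was at 7.20, 6.96 and 7.22 against 7.35, 7.34 and 7.53, a difference of 0.28 ± 0.12 (SE; limma adjusted p = 0.463). In both genes corn oil 2 was the lowest liver and BBMP 3 the highest. The dimmer probe of Acaa2 gave 0.21, with overlapping groups. Acadm, the medium-chain dehydrogenase, was at 7.11, 6.98 and 7.10 against 7.14, 7.35 and 7.37, a difference of 0.22. Hadhb, the thiolase subunit of the trifunctional protein, was at 3.51, 3.03 and 3.41 against 3.53, 3.57 and 3.74, a difference of 0.30. Hadha, its partner subunit, differed by 0.15 at its brightest probe and by -0.07 and 0.02 at the others.

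The carnitine shuttle showed no common direction. Cpt1a, which makes the carnitine esters at the outer membrane and is the main control point of the pathway, was at 5.51, 4.53 and 5.25 in corn oil livers and 4.98, 4.65 and 5.33 in treated livers. The corn oil livers spanned 0.98 and enclosed all treated livers. The difference was -0.11 ± 0.29 (SE), with a 95% interval from -0.81 to 0.59. Cpt2, at the inner membrane, differed by 0.11 and the carrier Slc25a20 by 0.13.

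The dehydrogenases of other chain lengths were at or slightly below 0: Acadl, for long chains, differed by -0.03, Acadvl, for very long chains, by -0.07, and Acads, for short chains, by -0.07. The hydratase Echs1 differed by 0.06, the reductase Decr1 by 0.02 and the dehydrogenase Hadh by -0.05, with 0.25 at its dimmer probe. At that dimmer probe all treated livers lay above all corn oil livers, while at the brightest probe of Hadh the groups overlapped. The electron transfer flavoprotein subunits Etfa and Etfb differed by 0.11 and -0.06. Their oxidoreductase Etfdh differed by 0.21 with an SE of 0.20. Bdh1, which makes the ketone body beta-hydroxybutyrate and is the sole ketogenic enzyme among the members, was at 5.55, 5.42 and 4.58 in corn oil livers and 4.97, 5.22 and 5.61 in treated livers. These groups overlapped, and the difference of 0.08 ± 0.29 (SE) leaves a 95% interval from -0.62 to 0.79.

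Set side by side within each animal, the peroxisomal members stood higher relative to the mitochondrial members after BBMP. The groups did not separate without Ehhadh and Pex11a. Each member was centred on its mean over the 6 livers and averaged over its group. The peroxisomal mean was -0.02, -0.20 and -0.16 in corn oil livers and 0.05, 0.17 and 0.17 in treated livers, without overlap. The mitochondrial mean was 0.11, -0.15 and -0.11 in corn oil livers and 0.03, -0.04 and 0.16 in treated livers, which overlap. The peroxisomal minus the mitochondrial mean was -0.13, -0.05 and -0.06 in corn oil livers and 0.02, 0.20 and 0.008 in treated livers. All treated livers were above all corn oil livers, with BBMP 2 standing apart from the other treated livers. The medians of the differences stood 0.09 apart, with 0.19 for peroxisomal and 0.11 for mitochondrial members. Without corn oil 1 this gap was 0.03. Without Ehhadh and Pex11a, left out after their values were seen, the peroxisomal mean overlapped between the groups, at 0.01, -0.11 and -0.10 against 0.003, 0.11 and 0.09. This mean was then below the mitochondrial mean in BBMP 1 and BBMP 3 and above it in corn oil 2 and corn oil 3. The peroxisomal minus the mitochondrial mean thus overlapped as well. The members share the same 6 arrays and were chosen with results known, so no test of this gap is given.

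**Figure D3:**
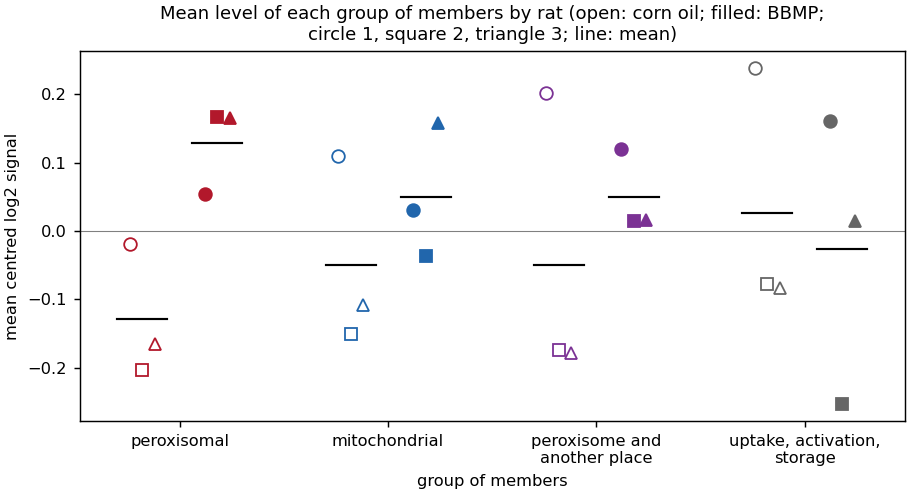
Mean centred log2 signal (vertical axis) of each group of members in each liver; open symbols are corn oil, filled symbols BBMP, shapes the animal number and lines the group means of 3 livers. The peroxisomal means of the treated livers, 0.05 to 0.17, lie above those of the corn oil livers, -0.20 to -0.02, while the other groups of members overlap.

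The members found in the peroxisome and another place were all slightly higher, with a median difference of 0.07. Crat, the carnitine acetyltransferase of mitochondria and peroxisomes, was at 6.59, 5.97 and 5.79 in corn oil livers and 6.44, 6.24 and 6.27 in treated livers. The groups overlapped, with corn oil 1 above all treated livers, and the difference was 0.20 ± 0.21 (SE; limma adjusted p = 0.752). Slc27a2, an activating enzyme for very long chains, was at 8.87, 8.64 and 8.71 against 8.88, 8.86 and 8.70, a difference of 0.07. The isomerase Eci2 differed by 0.03.

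The genes of uptake, activation and storage had no common direction. Of 9 tested, 4 were higher and 5 lower, and the median of -0.06 turned to 0.03 with quantile normalisation and to 0.08 with normexp.

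Acsl3, an acyl-CoA synthetase of the endoplasmic reticulum and lipid droplets, was the member with the largest negative difference. Its levels were -0.74, -0.43 and -0.50 in corn oil livers and -1.65, -1.43 and -0.95 in treated livers. All treated livers lay below all corn oil livers, with BBMP 3 nearest to them. The difference was -0.79 ± 0.20 (SE), 0.579 of the corn oil level, and did not pass (limma adjusted p = 0.388). Acsl3 was likewise measured by a single probe. The main liver synthetase Acsl1 differed by 0.07, with its 4 probes from -0.07 to 0.19, and Acsl5 by 0.20.

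Vnn1, a pantetheinase of the cell surface, was at 4.19, 2.95 and 3.75 in corn oil livers and 4.61, 4.06 and 4.03 in treated livers. The groups overlapped, with corn oil 2 far below the rest. The difference of 0.60 ± 0.33 (SE; limma adjusted p = 0.547) was 0.27 without that animal. Angptl4, a secreted inhibitor of lipoprotein lipase, was at 6.78, 6.86 and 6.60 against 6.63, 6.29 and 6.55, a difference of -0.26 ± 0.13 (SE; limma adjusted p = 0.522). The fatty acid transporter Cd36 differed by -0.26 ± 0.25 (SE), the lipid droplet coat protein Plin2 by -0.06 and the cytosolic binding protein Fabp1 by -0.10. Their groups overlapped, Fabp1 by a single treated liver that lay above 1 corn oil liver.

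Acot1, a cytosolic thioesterase, varied most between animals. It was at 3.77, 3.15 and 2.34 in corn oil livers and 4.05, 1.97 and 3.60 in treated livers. The treated livers alone spanned 2.09 on the log2 scale, so the difference of 0.12 has a 95% interval from -1.33 to 1.58. Acot2, its mitochondrial neighbour on chromosome 6, was at 5.63, 5.43 and 5.08 in corn oil livers and 5.90, 5.29 and 5.83 in treated livers. The same livers were high and low for both genes within each group. These copies are close in sequence, and whether probes for either bind transcripts of the other was not tested.

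Several tested probes were available for 16 members. Their differences had the same sign for 11 genes and not for 5, which were Acaa1a, Acadvl, Acsl1, Hadh and Hadha. Probe differences of Acadvl ran from -0.07 to 0.05, so signs there turned around 0, while those of Acaa1a spanned -0.15 to 0.37.

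**Figure D4:**
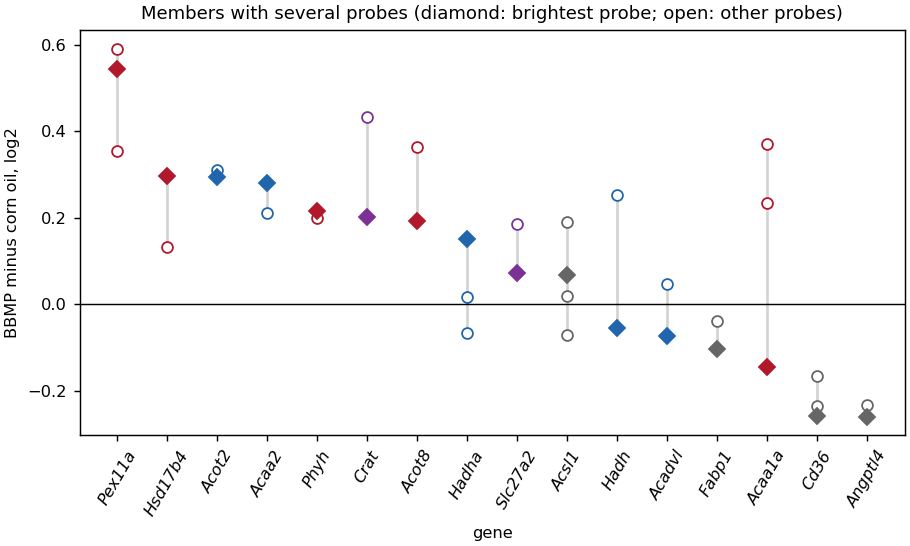
Difference in log2 signal between BBMP and corn oil livers (vertical axis) for each probe of the 16 members with several tested probes; diamonds are the brightest probes, used for the gene's value, and open circles the others. The probes of Pex11a lie between 0.36 and 0.59, while those of Acaa1a fall on both sides of 0.

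The lowest corn oil liver was the same animal for many members. Corn oil 2 was the lowest of its group for 23 of 42 members (54.8%), against 34.7% of all features tested, and corn oil 1 for 3 members (7.14%) against 28.8%. Without corn oil 2 the median difference was 0.16 for peroxisomal and 0.05 for mitochondrial members. Leaving out corn oil 1 in its place gave 0.23 and 0.20.

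Genes of the same pathways that are no members were looked at from a list of 69, of which 62 were tested. After BBMP 44 were higher (47.5% of all features) and 18 lower, with a median difference of 0.14, and 0 had a limma adjusted p below 0.05. At an unadjusted limma p under 0.05 there were 8 higher (4.7% of all features) and 1 lower (6.1%). The one lower was Pdk4, a kinase that restrains glucose oxidation, with a difference of -0.95 ± 0.16 (SE; limma adjusted p = 0.314). Of the higher, catalase (Cat) differed by 0.33 and the CoA-cleaving enzyme Nudt19 by 0.26. The dienoyl-CoA isomerase Ech1 differed by 0.44 and the acyl-CoA dehydrogenase Acad11 by 0.45. Also higher were Bdh2 (0.65), the coactivator Ppargc1b (0.79) and Cpt1b (1.11), the muscle form of the carnitine enzyme, with overlapping groups for Ppargc1b and Cpt1b.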

How the data were processed

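Per the labels' protocols, 0.2 µg of total RNA per liver was labelled with Cy3. Per the file headers, the authors read the arrays (Agilent rat design 035170) with Feature Extraction 10.7.1.1, which gives background-subtracted, detrended intensity per spot, not normalised between arrays. The deposited value table also holds linear intensity: each column was the processed signal over 1 constant, probes were not centred, and column medians lay between 0.0965 and 0.0998. The software of that step is not given in the sources used here.

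Control and spike-in spots were left out, which kept 61573 probes. Outlier spots were left out only on the array concerned. Unversioned accessions were matched to RefSeq symbols (GRCr8) and named 27460 probes (44.6%). The log2 of the processed signal minus that of the array's 75th percentile was analysed. The test took features that exceeded background clearly on every one of the 3 arrays of either group, with the brightest such probe per gene. The fit used R 4.3.3 and limma 3.58.1 (lmFit, eBayes, no covariate; two-sided, Benjamini-Hochberg over 28112 features, threshold 0.05), tested on simulated data. The simulated differences were larger than those of nearly all members, so that check does not cover differences as small as theirs. Python 3.11.15 with numpy 2.4.6 and pandas 2.3.3 made the tables. Medians and means over members carry no test.

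Values in every animal are given for members at an unadjusted p under 0.05, with a difference of at least 0.5, or among the 2 smallest p of their group; others given in full were chosen after their values were seen. Other pathway genes are named at an unadjusted p under 0.05, except 1 that is not reported here. The members and lists were chosen with earlier results of these data known. The alternatives were normexp (offset 50, on the median spot signal), quantile and median scaling, no filter or a filter on all 6 arrays, the mean of probes, every probe, a variance trend, array weights, the authors' value table, a block for the replicate number, another placing of members, and leaving out each animal.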

Additional observations from a re-analysis of the deposited data

How the results depend on the processing

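Over all features 2 passed limma's adjusted p of 0.05; this went to 0 with normexp, 1 without a filter, 0 with the filter on all 6 arrays and 0 with the replicate block, and lay between 0 and 4 without 1 animal (4 without corn oil 2, 0 without corn oil 3). Members passing stayed at 0 under all 17 alternatives, with a lowest adjusted p of 0.279. Members at an unadjusted p under 0.05 numbered 4, and 10 with normexp, 8 with the variance trend, 6 with the replicate block and 3 to 8 without 1 animal (8 without corn oil 1). Over all 28112 features the counts were 3035, and 3252, 3157 and 3235 in the same order, and 1934 to 3216 without 1 animal. The labels do not say that a shared replicate number pairs animals. Deviations of animals with the same number had correlations of 0.089, 0.016 and 0.072, and animal 2 did not correlate best with its own number. The peroxisomal median of 0.19 was 0.31 with normexp and 0.16 to 0.25 without 1 animal; the mitochondrial median of 0.11 ran from 0.04 to 0.20 over the alternatives, and their gap of 0.09 from 0.03 to 0.15.

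Of 42 members, 28 kept their sign under every alternative run, Ehhadh (0.87 to 1.30), Pex11a (0.46 to 0.71), Hsd17b4 (0.21 to 0.33) and Acsl3 (-0.98 to -0.57) among them. Several alternatives could not turn a sign. The filters, every probe as its own row, the variance trend and the replicate block kept the difference of each tested probe. The authors' value table holds nearly the same values. The mean of probes could not move Ehhadh or Acsl3, each with a single probe. Signs turned with normexp for Acox2 (-0.16), Acadl (0.060), Acads (0.0083), Hadh (0.026) and Plin2 (0.076), with quantile normalisation for Acox2 (-0.00065) and Fabp1 (0.033), and with the mean of probes for Acaa1a (0.15) and Hadh (0.10). Without 1 animal the range was -0.15 to 0.12 for Acox2, -0.026 to 0.31 for Crot, -0.081 to 0.067 for Acadl, -0.030 to 0.046 for Decr1, -0.40 to 0.094 for Cpt1a, -0.22 to 0.27 for Bdh1, -0.10 to 0.0022 for Etfb, -0.034 to 0.10 for Eci2, -0.16 to 0.091 for Plin2 and -0.30 to 0.74 for Acot1. The causes were not tested. Signal over background limits Abcd2, for which no difference is given.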
